A study of Mus musculus with 4 samples.

Results

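The bone morphogenetic protein (BMP) and transforming growth factor beta (TGF-beta) pathway was examined in RNA-seq counts of the mouse telencephalon. Members were chosen by gene symbol, as the BMP, GDF, TGF-beta and inhibin genes with their receptors, Smads, Id genes and 8 extracellular inhibitors or modulators. This rule used no measured value, though it was set with earlier results of these data known, and took 58 of the 27293 genes in the table. The 4 libraries were made from telencephalic tissue of C57BL/6 embryos at embryonic day 13 (E13), and the study's methods name the tissue cerebral cortex. Of these, 2 carry the genotype label WT and 2 the label STINGf/f;Nestin-Cre, written cKO from here on. In the cKO design both copies of the STING gene are floxed and Cre recombinase is driven by the Nestin promoter, which is active in neural progenitors, so the deletion is aimed at that lineage and not at blood, microglia, meninges or vessels. The title of WT 2 ends in an abbreviation that differs from that of WT 1, and the labels do not say whether either WT library carried the Cre transgene. No label says whether libraries came from separate embryos or litters, so the p-values below measure the spread between these libraries, which may be technical. The count of the STING gene (Tmem173), the targeted gene, was 20 and 19 in the WT libraries and 18 and 22 in the cKO libraries, so it did not separate the groups and is no check of the labels. For this reason a direction between groups is a direction between libraries labelled WT and cKO. Reads of a gene are listed in the order WT 1, WT 2, cKO 1, cKO 2.

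The comparison of cKO with WT asks which transcripts change in the E13 cortex when STING is deleted in neural progenitors. BMP and TGF-beta ligands are secreted dimers that assemble type I and type II receptor kinases, and the type I receptor then phosphorylates Smad transcription factors that enter the nucleus with Smad4. BMP signals pass through Smad1, Smad5 and Smad9, and TGF-beta and activin signals through Smad2 and Smad3, while Smad6 and Smad7 inhibit the cascade. In the embryonic telencephalon the dorsal midline, made up of the roof plate, the cortical hem and the choroid plexus, is the known centre of BMP expression. Id genes, which encode inhibitors of basic helix-loop-helix transcription factors, are classic BMP targets.

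Between 17209654 and 18533391 counts fell on genes in each library, and 3 counts, up to which a gene with no read may still be present, corresponded to 0.162 to 0.174 CPM (counts scaled to one library size with TMM factors). Of the 58 members, 47 passed the filter on low counts and were tested, and 11 did not. The members that were not tested were Gdf7, Bmp8b, Gdf6, Bmp15, Bmp8a, Sostdc1, Smad9, Gdf15, Inhbc, Gdf3 and Inhbe. Among them Gdf6, Bmp15, Bmp8a, Inhbc, Gdf3 and Inhbe had at most 3 counts in every library, and Gdf15 had at most 4. Of all members, 28 had at least 100 counts in every library.

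No member was called, in either direction, at the thresholds of the study (2-fold or more, unadjusted p up to 0.05). Over all 16145 genes tested, 0.669% were called lower in cKO and 0.142% higher, so a count of 0 among the members is close to the background. Without WT 1 the calls over all genes went from 108 lower and 23 higher to 48 lower and 52 higher. No gene and no member had an adjusted p under 0.05 (background 0.0%), and the adjusted p of each tested member was 0.9999 (quasi-likelihood test of edgeR, Benjamini-Hochberg adjustment over all genes). At an unadjusted p under 0.05 stood 199 genes and 0 members, and the smallest unadjusted p of a member was 0.103, for Bmp6. DESeq2 also called 0 members. The log2 fold change, cKO over WT, was below 0 for 37 of the 47 tested members and above 0 for 10, with a median of -0.19 against -0.01 over all genes. Without cKO 2 the split was even, with 24 below and 23 above 0 and a median of -0.02. At or below -0.58 lay 6 members (12.8% of those tested, against 5.35% of all genes), namely Bmp6, Bmp4, Tgfbr3, Bmp7, Id3 and Acvrl1, and no member reached 0.58. Within 0.3 of 0 lay 31 members (66.0%, against 79.6% of all genes). The median standard error of a member's log2 fold change was 0.28. With 2 libraries against 2, an exact permutation test cannot give a two-sided p below 0.333, so none was used.

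**Figure D1:**
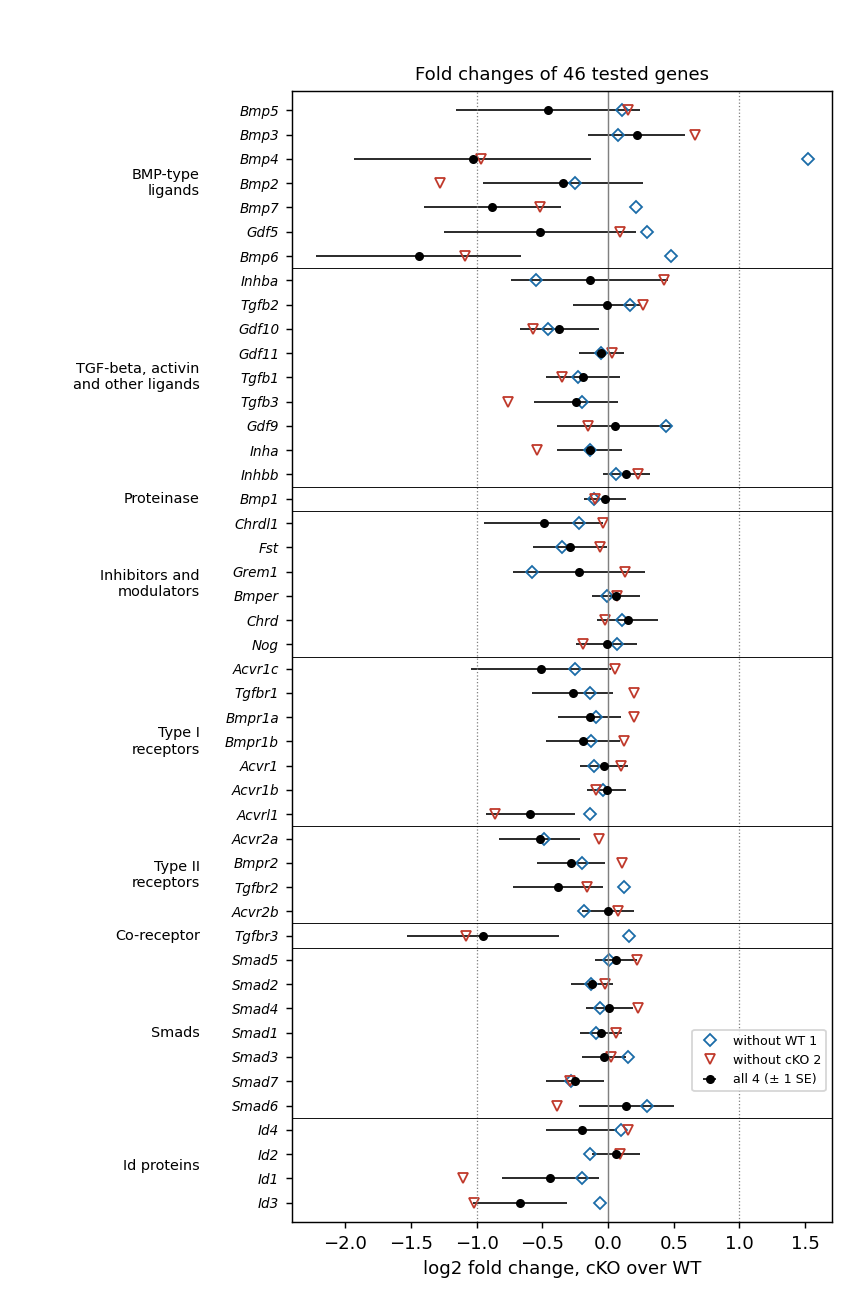
Log2 fold change (cKO over WT, horizontal axis) of 46 tested members, grouped by role and within each group ordered by transcript GC content. Black points with bars of 1 standard error use all 4 libraries, blue diamonds leave out WT 1 and red triangles leave out cKO 2; dotted lines mark a 2-fold change, and Bmp4 moves from -1.03 to 1.52 when WT 1 is left out.

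In 5 tested members the cKO libraries were both under the lower WT library, against a background of 10.8% of genes, and in 1 tested member they were both over the higher one, against 11.0%. The 5 were Fst, Smad2, Smad7, Gdf10 and Acvr2a. As a share of the tested members neither count exceeded the background. Each of the 5 differences was under 2 times its standard error, with a log2 fold change of -0.12 (standard error 0.16) for Smad2 and -0.25 (standard error 0.22) for Smad7. Most of the larger departures of members instead belonged to a single library. WT 1 was the highest library for 16 tested members (34.0%, against 25.1% of all genes) and cKO 2 the lowest for 23 (48.9%, against 33.4%).

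**Figure D2:**
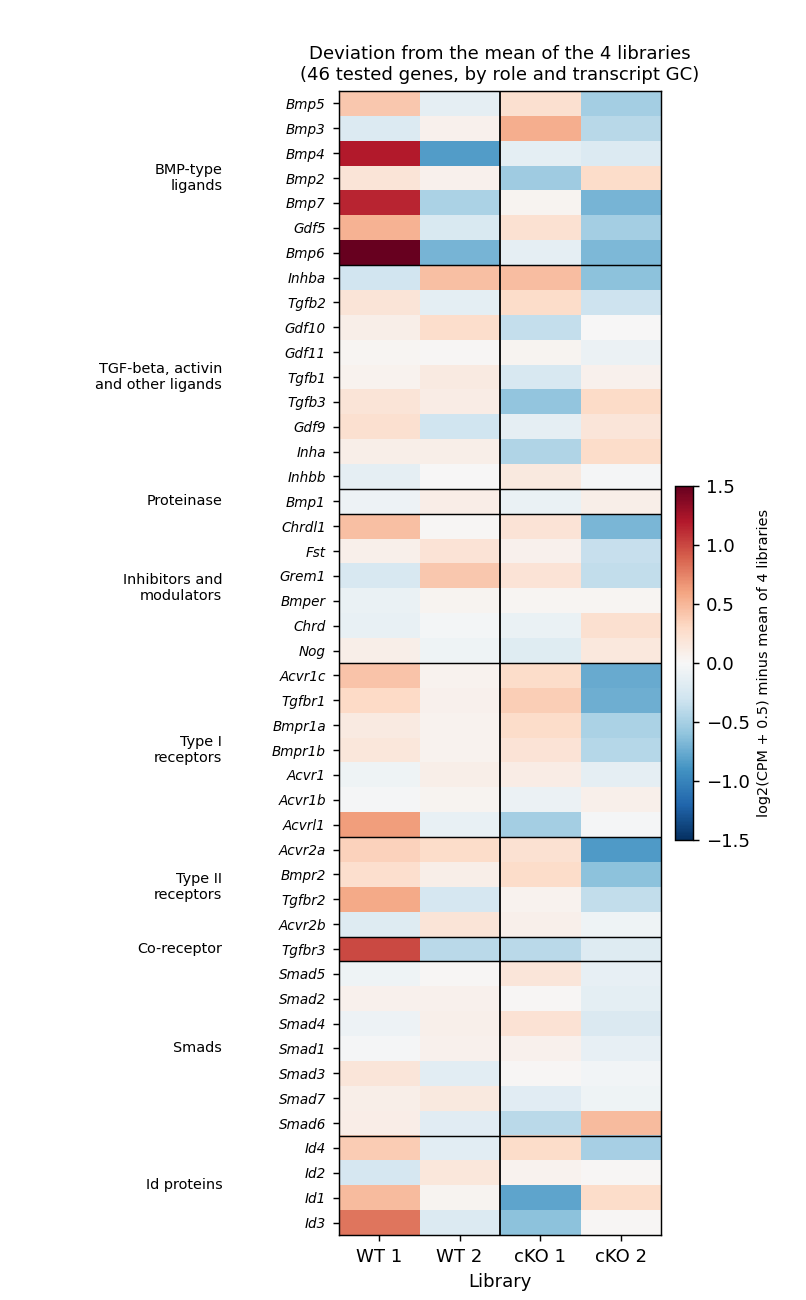
Heat map of 46 tested members (rows, by role and then transcript GC content) in the 4 libraries (columns), where colour is the deviation of log2(CPM + 0.5) from the mean of the 4 libraries. Red cells in the first column mark Bmp4, Bmp7, Bmp6, Tgfbr3 and Id3 in WT 1, and blue cells in the last column mark receptors such as Acvr2a and Tgfbr1 in cKO 2.

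Levels are compared between genes only per exon length, as CPM per kb, averaged over the 4 libraries. The highest level belonged to Id4 at 67.5 CPM per kb, followed by Id2 at 49.8, the activin type I receptor Acvr1b at 38.7, Smad5 at 27.5 and Smad4 at 26.0. Id4 ranged from 46.5 to 85.6 CPM per kb over the libraries and Id2 from 41.6 to 55.8, so these neighbours overlapped. Acvr1b, at 36.3 to 40.9 CPM per kb, lay below every library of Id2 and above every library of Smad5, which ranged from 25.2 to 30.9. Smad5 and Smad4 overlapped. The ligand gene with the highest level was Inha, which encodes the inhibin alpha subunit, at 17.7 CPM per kb, and the highest BMP-type ligand was Bmp7 at 2.28, below each of the 4 Id genes, of which Id3 was the lowest at 8.65.

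**Figure D3:**
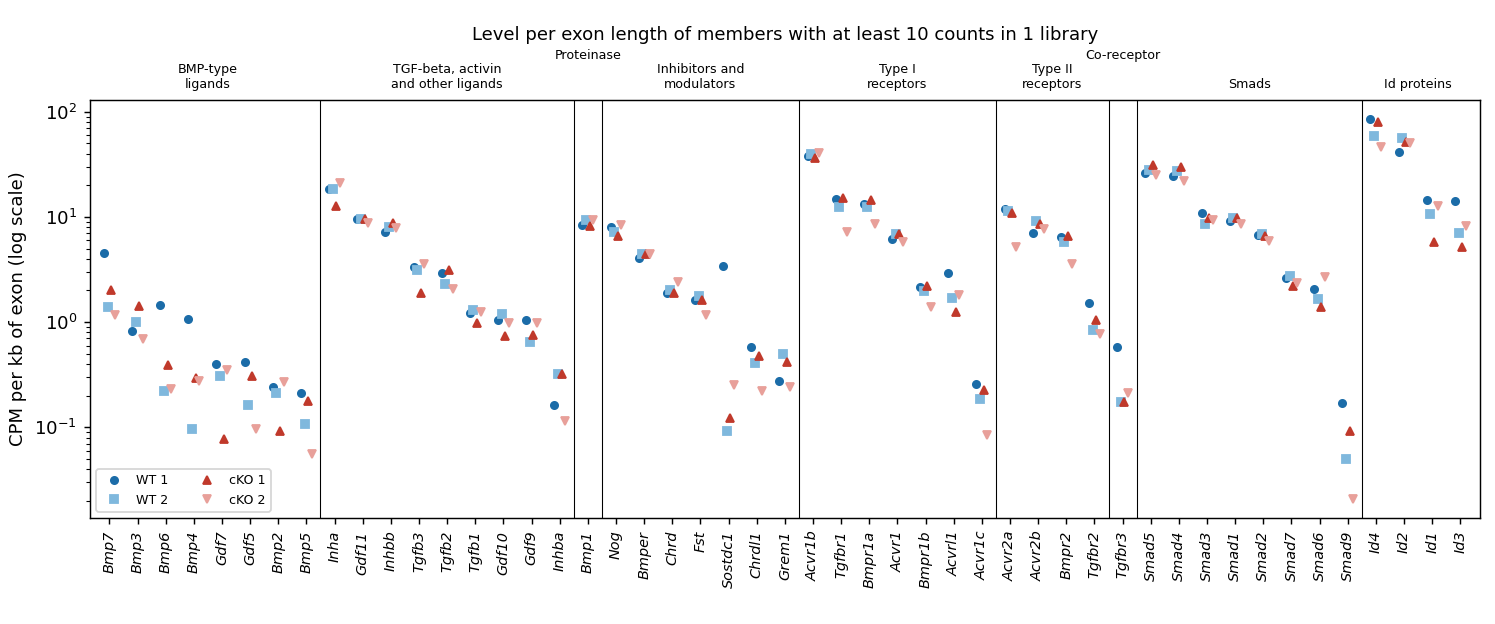
Level per exon length (CPM per kb, log scale) of 49 members with at least 10 counts in 1 library, grouped by role, with 1 point per library. Id4, Id2, Acvr1b, Smad5 and Smad4 lead, and the points of Bmp6, Bmp4, Sostdc1 and Tgfbr3 split between WT 1 and the other 3 libraries.

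Among the BMP-type ligands, Bmp6, Bmp4 and Bmp7 had 1 library far above the rest. Bmp6 (ENSMUSG00000039004, chromosome 13, 38345107 to 38500302, plus strand) encodes a ligand of the BMP5, BMP6 and BMP7 subgroup and had 100, 16, 28 and 16 reads (WT 1, WT 2, cKO 1, cKO 2). Only WT 1 stood high, WT 2 and cKO 2 had the same count, and the groups overlapped. The CPM was 3.31 ± 3.45 in WT and 1.21 ± 0.449 in cKO (SD, n = 2), with a log2 fold change of -1.44 (standard error 0.78). Without WT 1 it was 0.48.

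Bmp4 (ENSMUSG00000021835, chromosome 14, 46383520 to 46390669, minus strand), a ligand of the roof plate and cortical hem, had 42, 4, 12 and 11 reads (WT 1, WT 2, cKO 1, cKO 2). Here the highest and the lowest library were both WT. The CPM was 1.32 ± 1.55 in WT and 0.636 ± 0.0285 in cKO (SD, n = 2), and the log2 fold change of -1.03 (standard error 0.90) became 1.52 without WT 1. WT 1 exceeded WT 2 by 11.1-fold in CPM, with an exact 95% interval of 4.03 to 42.7 that covers counting error only.

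Bmp7 (ENSMUSG00000008999, chromosome 2, 172868012 to 172940321, minus strand), the BMP-type ligand with the highest level, had 316, 103, 150 and 84 reads (WT 1, WT 2, cKO 1, cKO 2). WT 1 was again above all others, and WT 2 lay between the cKO libraries. The CPM was 11.9 ± 8.90 in WT and 6.45 ± 2.47 in cKO (SD, n = 2). Its log2 fold change was -0.88 (standard error 0.52) with all libraries and 0.21 without WT 1.

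The remaining tested BMP-type ligands had no such peak. Bmp3, which encodes an atypical member that opposes other BMPs, had 105, 136, 192 and 91 reads, so both extremes were cKO libraries, and its log2 fold change was 0.22 (standard error 0.37). Bmp2, a ligand close to BMP4, had 15, 14, 6 and 17 reads, with cKO 1 low. Gdf7, a roof plate ligand that was not tested, had 10, 8, 2 and 9 counts and was also lowest in cKO 1. Gdf5 and Bmp5 had at most 17 and 15 counts. Over the 7 tested BMP-type ligands the log2 fold change had a median of -0.52 and was below 0 in 6, and WT 1 was the highest library in 5. Without WT 1 the direction of the group turned, with 6 of the 7 above 0 and a median of 0.21.

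Of the extracellular inhibitors and modulators, which bind ligands outside the cell or a co-receptor, Sostdc1 showed the widest split between libraries of any member. Sostdc1 (ENSMUSG00000036169, chromosome 12, 36314139 to 36318452, plus strand), also called ectodin or wise, had 106, 3, 4 and 8 reads (WT 1, WT 2, cKO 1, cKO 2). It was high in WT 1 alone, and WT 2 was the lowest library. WT 1 exceeded WT 2 by 37.4-fold in CPM (exact 95% interval 12.5 to 184), cKO 1 by 27.9-fold (10.6 to 104) and cKO 2 by 13.6-fold (6.66 to 32.4), intervals that cover counting error only. The filter on low counts removed Sostdc1, and with no such filter edgeR gave a log2 fold change of -3.20 (standard error 0.53) and an adjusted p of 4.29e-06, from WT libraries with 106 and 3 reads. This gene is on a short list of lower genes that the study picked from these samples, so its direction is not independent evidence. In the study's own qPCR of that list at E13, the difference of Sostdc1 between WT and cKO was not significant.

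Nog, Chrd and Bmper were at similar levels in the groups. Nog, which encodes the BMP antagonist noggin, had 236, 223, 204 and 256 reads (WT 1, WT 2, cKO 1, cKO 2), with both extremes in cKO and a log2 fold change of -0.01 (standard error 0.23). Chrd (chordin) had 205, 230, 217 and 271 counts and Bmper, a chordin-like modulator, had 341, 399, 393 and 384 in the same order, with log2 fold changes of 0.15 (standard error 0.23) and 0.06 (standard error 0.18). These 3 genes differed between groups by less than their standard errors.

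Fst, which encodes the activin antagonist follistatin, had 130, 151, 136 and 97 reads (WT 1, WT 2, cKO 1, cKO 2). In CPM, cKO 1 was just below WT 1, the lower WT library, and cKO 2 was further down, and the log2 fold change was -0.29 (standard error 0.28). Chrdl1 (chordin-like 1), with 68, 51, 59 and 27 reads, was lowest in cKO 2, and its log2 fold change of -0.49 (standard error 0.45) was -0.04 without cKO 2 and -1.14 without cKO 1. The antagonist gremlin 1 (Grem1), with 20, 38, 32 and 18 counts, was too low for a difference of this size to be resolved. Bmp1 encodes not a ligand but the procollagen C-proteinase that also cleaves chordin, and its counts of 1284, 1543, 1330 and 1484 gave a log2 fold change of -0.02 (standard error 0.16).

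The libraries labelled WT also differed from each other in the co-receptor Tgfbr3 and the receptor Acvrl1. Tgfbr3 (ENSMUSG00000029287, chromosome 5, 107106570 to 107289629, minus strand), betaglycan, which presents TGF-beta2 and inhibin, had 66, 21, 21 and 25 reads (WT 1, WT 2, cKO 1, cKO 2). WT 1 stood alone, and the other 3 libraries were close together. The CPM was 2.47 ± 1.88 in WT and 1.27 ± 0.178 in cKO (SD, n = 2), with a log2 difference of -0.95 (standard error 0.58) with WT 1 and 0.16 without it. Acvrl1, or ALK1, the type I receptor of endothelial cells, had 216, 133, 98 and 138 reads. WT 1 was highest, cKO 2 was above WT 2 in CPM, and the log2 fold change of -0.59 (standard error 0.34) was -0.14 without WT 1.

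Lists of markers of several cell types were also highest in WT 1. The genes with a peak in WT 1 were picked out for that peak, so the shared library follows from the choice and rests on a single library. Summed over 11 choroid plexus markers, of which 2 (Htr2c and Slc4a5) are on the study's short list of lower genes, the CPM was 77.9 in WT 1 against 17.1 in WT 2 and 14.6 and 15.1 in the cKO libraries, and 11 of 11 markers were highest in WT 1, Folr1 being at 0 counts in WT 2 and Kcnj13 at 0 in cKO 2. The 10 cortical hem and roof plate markers summed to 119 CPM in WT 1 and to 47.5 to 60.7 in the others (10 of 10 highest in WT 1), and the 17 meningeal and mesenchymal markers, of which that list also holds 2 (Ogn and Fmod), to 456 against 128 to 180 (17 of 17). Endothelial markers summed to 235 CPM in WT 1 against 160 to 185 (8 of 10), microglial markers to 52.2 against 35.4 to 42.8 (7 of 8) and blood genes to 1055 against 463 to 703 (6 of 7). Ventral telencephalic genes summed to 1030 and 986 CPM in the WT libraries, 658 in cKO 1 and 1015 in cKO 2. The defining markers of the cortex were steadier, with 2592 to 2796 CPM over 9 progenitor markers and 4891 to 5844 over 8 neuronal markers, so markers of the labelled tissue were present in each library. The choroid plexus genes Ttr and Clic6, for which only WT 1 and cKO 1 were analysed here, gave 5071 and 526 reads in WT 1, against 23 and 2 in cKO 1.

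The part of these marker shifts in the values of the BMP genes was not tested. In bulk tissue, fewer cells of a type and less RNA per cell cannot be told apart. The set of large differences changed with the library left out. The number of members at or below -0.58 was 6 with all libraries and 0 without WT 1, where 29 of 47 lay below 0 with a median of -0.09 and 1 member (Bmp4) reached 0.58. Leaving out cKO 1 gave 15 members at or below -0.58 and leaving out cKO 2 gave 8. Leaving out WT 2 gave 12, with log2 fold changes of -2.23 for Bmp6, -1.91 for Bmp4, -1.56 for Tgfbr3, -1.48 for Bmp7 and -1.09 for Id3. In that comparison the 2 cKO libraries were set against WT 1 alone, whose spread was taken from them.

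**Figure D4:**
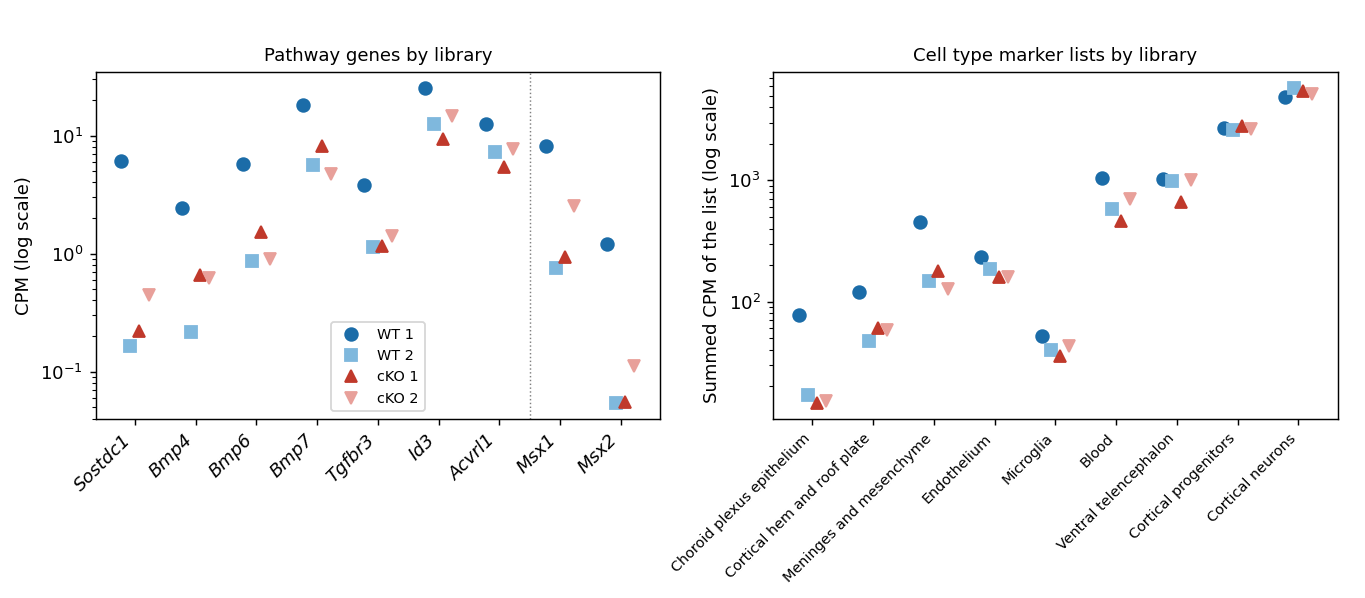
Left, CPM (log scale) of 7 members and, right of the dotted line, of the BMP target genes Msx1 and Msx2, with 1 point per library. Right, the summed CPM (log scale) of the 9 marker lists. The genes on the left were chosen because WT 1 was their highest library. WT 1 is also the highest point for the lists of choroid plexus, cortical hem, meninges, endothelium, microglia and blood, while progenitor and neuronal lists stay together.

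Among the Id genes only Id3 exceeded 0.58 in size. It had 444, 230, 170 and 262 reads (WT 1, WT 2, cKO 1, cKO 2), with WT 1 above the rest and WT 2 between the cKO libraries. Per library the CPM was 25.5 and 12.5 in WT (SD 9.22, n = 2) and 9.29 and 14.7 in cKO (SD 3.80, n = 2). Its log2 fold change was -0.67 (standard error 0.36) with all libraries, -0.06 without WT 1 and -1.02 without cKO 2.

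Id1, the Id gene most often used as a readout of BMP signalling, followed another library. It had 294, 228, 124 and 264 reads (WT 1, WT 2, cKO 1, cKO 2). The low library was cKO 1, whereas cKO 2 lay between the WT libraries, and the log2 fold change of -0.44 (standard error 0.37) was 0.01 without cKO 1 and -1.10 without cKO 2.

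Id2 and Id4, which neural progenitors and young neurons express strongly, showed no separation of the groups. Id2 had 1764, 2507, 2293 and 2189 reads (WT 1, WT 2, cKO 1, cKO 2), and its log2 fold change was 0.06 (standard error 0.18). Id4 had 5729, 4167, 5575 and 3199 reads, with WT 1 and cKO 1 high and cKO 2 lowest. Its log2 fold change was -0.20 (standard error 0.27), and it turned to 0.10 without WT 1 and to 0.15 without cKO 2.

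The letters of the promoters of Bmp4, Bmp6 and Id3, which shared the peak in WT 1, are given here with those of Id4, the member with the highest level, and Smad6, to show where Smad-type motifs lie. Each is 250 bases before to 50 after the start of the RefSeq transcript (GRCm38.p6), 5′ to 3′ on the gene's strand. They lie at chr14:46390620-46390919 (Bmp4, minus strand), chr13:38345466-38345765 (Bmp6, plus strand), chr4:136143572-136143871 (Id3, plus strand), chr13:48260866-48261165 (Id4, plus strand) and chr9:64022010-64022309 (Smad6, minus strand). Capitals mark CAGAC or its reverse complement GTCTG in Bmp6 and Id3, GGCGCC in Id4 and GTCTAGAC in Smad6, and the Bmp4 promoter holds none of these.
Bmp4: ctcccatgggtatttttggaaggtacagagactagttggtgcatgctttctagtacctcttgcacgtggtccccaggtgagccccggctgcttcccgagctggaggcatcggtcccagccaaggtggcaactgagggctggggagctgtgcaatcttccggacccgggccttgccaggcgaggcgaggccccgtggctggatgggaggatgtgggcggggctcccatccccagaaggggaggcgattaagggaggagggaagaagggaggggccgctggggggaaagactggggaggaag
Bmp6: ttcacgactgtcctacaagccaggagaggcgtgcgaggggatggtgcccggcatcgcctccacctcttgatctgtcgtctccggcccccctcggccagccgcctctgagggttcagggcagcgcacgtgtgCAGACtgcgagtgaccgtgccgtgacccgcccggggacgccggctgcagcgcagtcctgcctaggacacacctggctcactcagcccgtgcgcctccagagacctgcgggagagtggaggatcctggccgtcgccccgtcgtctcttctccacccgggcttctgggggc
Id3: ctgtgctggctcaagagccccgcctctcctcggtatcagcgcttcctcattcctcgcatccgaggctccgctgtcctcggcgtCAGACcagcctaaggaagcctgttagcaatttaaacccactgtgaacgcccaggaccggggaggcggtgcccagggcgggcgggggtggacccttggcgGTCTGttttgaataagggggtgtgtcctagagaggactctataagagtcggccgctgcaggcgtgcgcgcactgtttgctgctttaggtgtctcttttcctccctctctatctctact
Id4: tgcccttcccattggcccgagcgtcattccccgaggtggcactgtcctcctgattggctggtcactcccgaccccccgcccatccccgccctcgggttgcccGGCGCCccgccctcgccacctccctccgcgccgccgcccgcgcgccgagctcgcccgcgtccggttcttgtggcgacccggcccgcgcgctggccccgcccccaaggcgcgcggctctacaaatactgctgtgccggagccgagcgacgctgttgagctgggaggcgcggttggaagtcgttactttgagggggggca
Smad6: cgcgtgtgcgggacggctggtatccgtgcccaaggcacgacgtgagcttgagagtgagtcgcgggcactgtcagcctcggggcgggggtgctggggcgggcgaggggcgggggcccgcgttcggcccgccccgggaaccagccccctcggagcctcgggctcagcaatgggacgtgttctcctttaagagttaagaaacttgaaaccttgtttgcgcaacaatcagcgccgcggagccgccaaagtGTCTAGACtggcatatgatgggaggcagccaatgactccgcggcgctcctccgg

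CAGAC, the Smad box letters, occurred 0 times in the Bmp4 promoter, 1 time in that of Bmp6 and 2 times in that of Id3. The promoter table held 38 of the 58 members with 45 promoters, beside 32851 promoters of all genes. On either strand CAGAC was found in 46.7% of the member promoters and 49.6% of all promoters. GGCGCC, a palindrome found in BMP-responsive elements, was found in 26.7% against 11.9%, and the member promoters were richer in GC, with a median of 65.0% against 52.7%. The 12 promoters with GGCGCC belonged to Acvr1b, Bmpr1a, Bmpr2, Chrd, Gdf10, Grem1, Id2, Id4, Smad5, Smad9 and Tgfbr1. GTCTAGAC, the palindrome of the longer Smad element, was in 1 member promoter, that of Smad6 (2.22%), and in 0.213% of all. GTCTAGAC holds neither CAGAC nor GTCTG, so no match was counted under both. A match describes letters and is not a site.

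Most type I and type II receptors were lowest in cKO 2. All 7 type I receptors and all 4 type II receptors had log2 fold changes below 0, with medians of -0.19 and -0.33, and cKO 2 was the lowest library for 5 of the 7 and 3 of the 4. The sign says little for Acvr1b, Acvr2b and Acvr1, which were at -0.01, 0.00 and -0.03, within their standard errors. Over all genes tested, 8406 of 16145 were below 0. Without cKO 2, 4 of the 11 were below 0 and 7 above, with a median of 0.08. The 3 that were not lowest in cKO 2 were Acvr1b and Acvrl1, lowest in cKO 1, and Acvr2b, lowest in WT 1. Acvr2a (ENSMUSG00000052155, chromosome 2, 48814109 to 48903269, plus strand), an activin and BMP type II receptor, had 1180, 1187, 1146 and 526 reads (WT 1, WT 2, cKO 1, cKO 2). The WT libraries and cKO 1 were close together, and cKO 2 was at 0.453 of the mean CPM of the other 3. The log2 fold change was -0.52 (standard error 0.31) with all libraries, -0.07 without cKO 2 and -1.17 without cKO 1.

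Tgfbr1 (ALK5), the type I receptor of TGF-beta, had 1666, 1490, 1834 and 835 reads (WT 1, WT 2, cKO 1, cKO 2). Its highest and lowest libraries were both cKO, and the log2 fold change of -0.27 (standard error 0.31) was 0.20 without cKO 2. Bmpr2, the BMP type II receptor, had 2019, 1924, 2161 and 1141 reads, and Bmpr1a (ALK3), its type I partner, had 1454, 1445, 1691 and 981. The same order held for both, with cKO 1 highest and cKO 2 lowest, and their log2 fold changes of -0.28 (standard error 0.26) and -0.14 (standard error 0.24) became 0.11 and 0.20 without cKO 2.

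Bmpr1b (ALK6), with 222, 215, 240 and 147 counts, and the nodal and activin receptor Acvr1c (ALK7), with 42, 32, 39 and 14, shared this order at its low end, both being lowest in cKO 2. Acvr1 and Tgfbr2 were also lowest in cKO 2, at 0.873 and 0.676 of the mean CPM of the other libraries. The remaining receptors were not. Acvr1b (ALK4), the receptor with the highest level, had 2922, 3228, 2931 and 3232 reads (WT 1, WT 2, cKO 1, cKO 2), with a log2 fold change of -0.01 (standard error 0.15), and Acvr2b, the second activin type II receptor, had 478, 662, 610 and 535, with a log2 fold change of 0.00 to 2 decimals (standard error 0.20). Acvr1 (ALK2) lay within the same narrow range at -0.03 (standard error 0.18). Tgfbr2, the TGF-beta type II receptor, was highest in WT 1 with 218 counts against 127, 158 and 113, and its log2 fold change of -0.38 (standard error 0.34) was 0.12 without WT 1.

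The 6 receptors furthest down in cKO 2 share a low GC content of their transcripts. Acvr2a, Acvr1c, Tgfbr1, Bmpr2, Bmpr1a and Bmpr1b have a transcript GC content of 39.9% to 42.2%, and all 6 were lowest in cKO 2, at 0.374 to 0.657 of the mean CPM of the other libraries. The other 6 receptors, counting Tgfbr3, have 48.6% to 56.6% GC, with 2 of 6 lowest in cKO 2 and ratios of 0.676 to 1.08. The same relation ran through the whole table. Across 16120 genes, which are not independent replicates and share the library, the deviation of cKO 2 from the mean of the 4 libraries had a Spearman rho of 0.60 with transcript GC content, and that of cKO 1 a rho of -0.54, against -0.26 in WT 1 and -0.06 in WT 2. Over the 47 tested members rho was 0.62 in cKO 2 and -0.71 in cKO 1. All deviations of a gene are taken from the same mean of the 4 libraries, so the rhos of the libraries depend on one another. Over 10 equal bins of GC content, the median deviation of cKO 2 went from -0.41 in the lowest bin to 0.19 in the highest. Exon length moved with the deviation as well, with a rho of -0.33 in cKO 2 and 0.24 in cKO 1.

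Set against genes of the same GC bin, the 6 receptors of low GC deviated in cKO 2 by -0.44 to -0.20 on the log2(CPM + 0.5) scale, and before that comparison by -0.85 to -0.43. The other 6 receptors deviated by -0.39 to -0.03 against their bins, and before by -0.37 to 0.08. The 2 ranges thus overlapped once set against the bins. With an offset for GC content in the edgeR fit, the log2 fold change was -0.43 for Acvr2a, -0.18 for Tgfbr1, -0.18 for Bmpr2 and -0.06 for Bmpr1a, and no member was called. The unadjusted p of Acvr2a (quasi-likelihood test) was 0.0461 with the offset and 0.129 without it. Some members of higher GC content moved away from 0 with the offset, Id3 to -0.73, Acvrl1 to -0.65 and Id1 to -0.51. The part of GC content in the values of single receptors was not tested further. In cKO 1 several members of high GC content were low, among them Id1, Id3, Tgfb3, Inha and Smad6, but not all. Inhbb, with the highest GC content of the tested members (60.9%), deviated by 0.15 in cKO 1 and Gdf5 (56.6%) by 0.23.

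**Figure D5:**
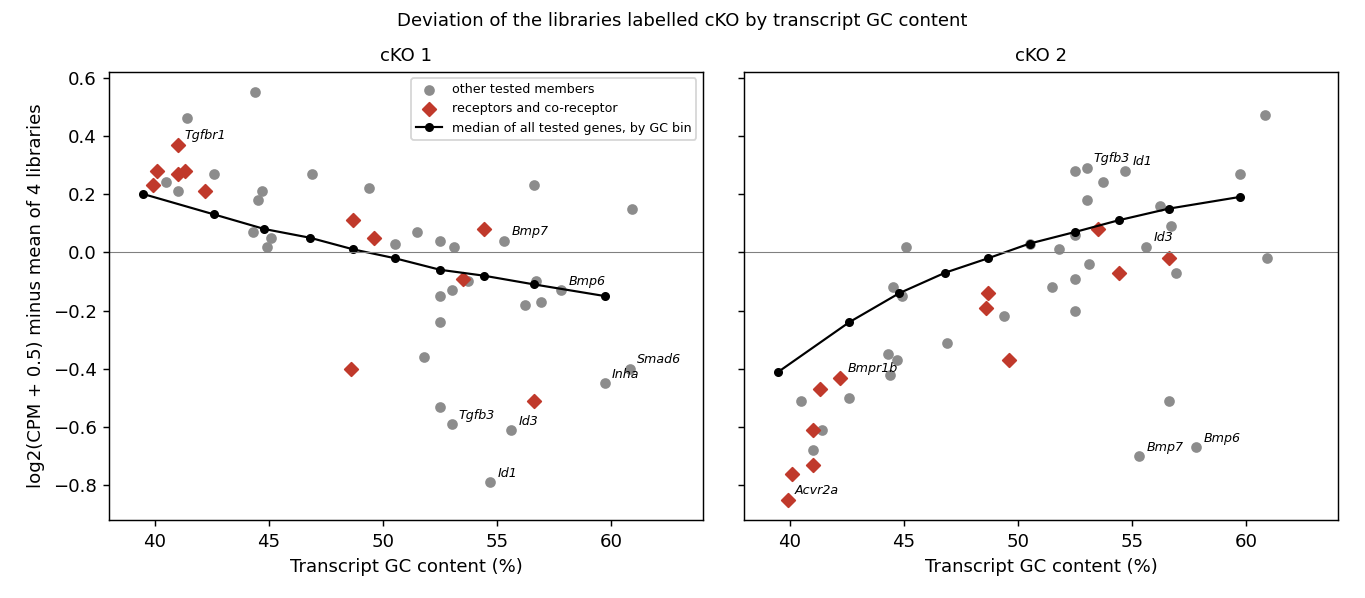
Deviation of log2(CPM + 0.5) from the mean of the 4 libraries against transcript GC content (%) for 46 tested members in cKO 1 (left) and cKO 2 (right), with receptors and co-receptor as red diamonds. The black line joins the medians of all tested genes in 10 equal GC bins, falling from 0.20 to -0.15 in cKO 1 and rising from -0.41 to 0.19 in cKO 2, and the members slope the same way around it.

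Smads, which carry the signal from receptor to nucleus, were the steadiest group. The log2 fold changes of the 7 tested Smads ran from -0.25 (Smad7) to 0.14 (Smad6), with a median of -0.03. Smad5, a BMP Smad, had 3357, 3795, 4201 and 3339 reads (WT 1, WT 2, cKO 1, cKO 2), so the highest and the lowest count were cKO, and its log2 fold change was 0.06 (standard error 0.16). Smad4, the common partner of all receptor Smads, had 1579, 1866, 2042 and 1473 reads and a log2 fold change of 0.01 (standard error 0.18). Smad1, the second BMP Smad, had 993, 1120, 1117 and 950 counts and a log2 fold change of -0.05 (standard error 0.16).

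Smad2 and Smad3, the TGF-beta and activin Smads, had log2 fold changes of -0.12 (standard error 0.16) and -0.03 (standard error 0.17). The inhibitory Smad6, itself a BMP target gene, was lowest in cKO 1 with 82 counts and highest in cKO 2 with 154, against 114 and 98 in WT 1 and WT 2. Smad9 was not tested. Its 16, 5, 9 and 2 reads (WT 1, WT 2, cKO 1, cKO 2) overlapped between the groups.

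The TGF-beta, activin and other ligands also differed little. Of 9 tested, 7 had a log2 fold change below 0, and the range was -0.37 (Gdf10) to 0.14 (Inhbb). Gdf11, a ligand that acts through the activin receptors and Smad2, had 674, 710, 714 and 634 reads (WT 1, WT 2, cKO 1, cKO 2), and its log2 fold change was -0.05 (standard error 0.17). Inhbb, the activin B subunit, had 529, 622, 684 and 592 reads, with a log2 fold change of 0.14 (standard error 0.18). Inha had 478, 506, 342 and 555, with cKO 1 low and cKO 2 above both WT libraries, and a log2 fold change of -0.14 (standard error 0.25). Tgfb3 had 196, 196, 117 and 218 reads (WT 1, WT 2, cKO 1, cKO 2), so again only cKO 1 was low. Tgfb1 and Tgfb2 had log2 fold changes of -0.19 (standard error 0.28) and -0.01 (standard error 0.26). Inhba, at 13 to 38 counts, and Gdf9, at 24 to 37, were too low to resolve a small difference.

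Beyond the 58 members, 55 further genes of the pathway were listed, of which 54 were in the table and 42 were tested. At fold 2 and an unadjusted p of at most 0.05, 1 of the 42 was called lower in cKO and 0 higher, beside the background shares of 0.669% and 0.142%. The log2 fold change was below 0 for 29 and above 0 for 13, with a median of -0.11, and without cKO 2 it was below 0 for 21 and above for 21. The gene called with all libraries was not called without WT 1 or without cKO 1.

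The BMP target genes Msx1 and Msx2, homeobox genes of the dorsal midline, were named because a library stood apart, which was WT 1 as for Bmp4 and Sostdc1. They do not stand for BMP targets in general. Of the 54 other pathway genes in the table, 3 had WT 1 at least 2-fold above the next library, with at least 10 counts in WT 1. Msx1 is also in the list of cortical hem markers used above. Msx1 had 142, 14, 17 and 45 reads (WT 1, WT 2, cKO 1, cKO 2), so WT 2 was the lowest library. Its log2 fold change of -1.37 (standard error 0.92) was 1.17 without WT 1. Msx2, with 21, 1, 1 and 2 reads (WT 1, WT 2, cKO 1, cKO 2), was not tested, and WT 1 exceeded WT 2 by 22.2-fold (exact 95% interval 3.58 to 920, counting error only).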

How the data were processed

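The authors extracted total RNA with TRIzol, made cDNA libraries for Illumina sequencing and deposited raw counts of reads per gene, without normalization, for 4 libraries (groups and replicate numbers from the labels). The submitters' processing notes name TopHat2 2.0.12, Bowtie2 2.2.3, HTSeq 0.6.0 and mm9, but 97.3% of 27232 genes have a start or end within 1 base of GENCODE M21, so positions were read as GRCm38. Strand handling is not given in the sources used here, so reads of overlapping genes may be shared. Blank rows (11, 0.0403% of rows) were left out. A second table of WT 1 and cKO 1 holds identical counts for the genes in both and gave Ttr and Clic6. Of the deposited columns, 2 of scaled per-library values, and the fold changes, p-values and adjusted p-values of the authors' own comparison, were not used.

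Counts were fitted over the whole table with edgeR 4.0.16 in R 4.3.3 (TMM, filterByExpr, quasi-likelihood test, group only, Benjamini-Hochberg over 16145 genes). The standard error is the log2 fold change divided by the square root of its F statistic. Calls followed the study (2-fold or more with an unadjusted p up to 0.05), and an adjusted p under 0.05 was counted apart. Deviations per library used log2(CPM + 0.5), which understates the change of low genes. Exon length is the union of exons and GC content that of the longest transcript in GENCODE M21. Intervals of ratios are exact and cover counting error only. The code was tested on simulated counts. DESeq2 1.42.0, other normalizations and filters, a replicate block, leaving out each library and offsets for GC content or exon length were alternatives, the offsets added after the data were seen.

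The members, the other pathway genes and the marker lists were chosen with earlier results of these data known. Values in every library were given for members called or at a log2 fold change of 0.58 or more in size, for up to 3 members of highest CPM per role, for Id genes and inhibitors with at least 10 counts in 1 library, and for members with 1 library at least 2-fold from all others. Of the other pathway genes, those with such a library were named. The values of 1 member, also left out of the figures, and of 1 other pathway gene are not reported here, but both are in the counts. Tgfb3, Smad6, Bmpr1b, Tgfbr2 and members without a full set of values were named after their values were seen, as were Eng, Ltbp1, Rgma, Fstl4 and Tll1. Promoters came from RefSeq (GRCm38.p6).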

Additional observations from a re-analysis of the deposited data

How the results depend on the processing

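No gene was called in every setting among the members, and none was called higher in cKO in any. The count of members called was 0 with all libraries, RLE or upper-quartile factors, at least 10 counts in every library, DESeq2, an unadjusted p of at most 0.01, and an offset for GC content or for exon length. Without a filter it was 2 (Bmp6 and Sostdc1, with 1 member, Sostdc1, at an adjusted p under 0.05), and it moved with the library left out. With a library left out, a group holds a single library, so only effect sizes are given for those fits. Without WT 2 the log2 fold changes of Bmp6, Bmp4, Tgfbr3, Bmp7 and Id3 were -2.23 to -1.09. Without cKO 1 they were -1.40 for Acvr1c and -1.17 for Acvr2a, and without cKO 2 they were -1.10 for Id1 and -1.02 for Id3. Calls over all genes moved as well. In such a fit the lone library is assumed to vary like the other group. The replicate block called 1 member, Bmp6, also when joined to a GC offset (1 member), and changed no other member call. Replicate numbers are shared by the groups, but with 2 pairs and a correlation of 0.15 between the deviations of same-numbered libraries over 14634 genes they are only numbers.

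Over all genes, 131 were called, against 405 without a filter, 72 among genes at 10 counts or more throughout, 208 with the replicate block, 65 with DESeq2, 14 at an unadjusted p of at most 0.01, and 100 (without WT 1) to 517 (without cKO 1) with a library left out. Genes with an adjusted p under 0.05 numbered 0, against 65 without a filter, 5 with the replicate block and 0 to 80 with a library left out, 80 without WT 2. Of the other pathway genes 1 was called, against 4 without a filter, 0 with DESeq2 and 1 to 2 with a library left out. The single call was another gene without WT 1 (Fstl4) and without cKO 1 (Tll1). The cause of these shifts was not tested. The median log2 fold change of the members ran from -0.21 to -0.02 with a library left out.

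Leaving out 1 library turned the sign of single genes. The log2 fold change ran from -1.48 to 0.21 for Bmp7, -2.23 to 0.48 for Bmp6, -1.91 to 1.52 for Bmp4, -1.56 to 0.16 for Tgfbr3 and -2.24 to 1.17 for Msx1, with the upper end without WT 1 in each. It ran from -0.63 to 0.15 for Id4, -0.14 to 0.30 for Id2, -1.10 to 0.01 for Id1, -0.92 to 0.20 for Tgfbr1, -0.56 to 0.20 for Bmpr1a and -0.79 to 0.11 for Bmpr2. Levels by total counts instead of TMM lay within 1 SD for 114 of 116 values. CAGAC on the given strand only was in 26.7% of member promoters. Depth limits members under 10 counts in every library, 8 of the 58.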

Other observations

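Among the other pathway genes that were not called, 3 are given with values. Ltbp1, a latent TGF-beta binding protein of the extracellular matrix, had 436, 406, 517 and 592 reads (WT 1, WT 2, cKO 1, cKO 2), so both cKO libraries were above both WT libraries, and the log2 fold change of 0.38 (standard error 0.19) did not pass the threshold. Eng, the endothelial co-receptor endoglin, had 727, 526, 449 and 569 reads (same order), with WT 1 highest as for Acvrl1. Rgma, a BMP co-receptor also known as a repulsive axon guidance cue, had 3107, 3061, 3161 and 3581 counts and a log2 fold change of 0.11 (standard error 0.15).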
